A study of Homo sapiens with 6 samples.

Results

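Metallothioneins and 2 other genes of the cellular zinc response were followed in SH-SY5Y cells, a human neuroblastoma line with an adrenergic, neuron-like character. The genes were chosen by symbol: MT2A, MT1E, MT1F, MT1G, MT1M, MT1X and MT3, which encode metallothioneins, MTF1, which encodes their zinc-sensing activator, and SLC30A1, which encodes a zinc exporter. Of these 9 symbols, 7 were found among the 28862 genes of the deposited read count table, and MT1M and MT3 were not analysed here. The series holds 6 messenger RNA libraries of this line, in which 3 carry the label of a control plasmid and 3 that of SMN1 overexpression, and compares their transcriptomes. The labels give the groups no other treatment, and they name neither the vector of the SMN1 group nor the time after its delivery. Whether each library had its own culture is not said, and p-values therefore reflect no more than the spread among these libraries, which may be technical.

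Metallothioneins are small, cysteine-rich proteins that bind zinc and copper ions, buffer free zinc in the cytosol and take up cadmium and other toxic metals. When free zinc rises, it binds the zinc fingers of MTF1, which then attaches to short DNA elements, the metal response elements, in front of the metallothionein genes and of SLC30A1. SLC30A1 lies in the plasma membrane and moves zinc out of the cell, so that buffering and export are induced by the same sensor. In neurons, where some vesicles store zinc and release it at synapses, this system limits the zinc that reaches the cytosol.

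Libraries held 30379242 to 40275498 reads assigned to genes, and 15829 genes had enough reads for a test with edgeR's quasi-likelihood test. Levels are given in CPM, reads per 1000000 after scaling library sizes with TMM factors, and 3 reads correspond to 0.0721 to 0.103 CPM. SMN1 itself was lower in the libraries labelled as overexpressing it (log2 difference -0.32 ± 0.06, SE, at an edgeR adjusted p = 9.40e-05). SMN2 was lower as well (-0.30 ± 0.08, SE, edgeR adjusted p = 0.00310), and how reads were divided between SMN1 and SMN2 is not stated. Every direction given here is therefore between libraries as labelled, and the second group is called the SMN1-labelled libraries. The labelled cell type was checked by its markers. Summed over 10 adrenergic markers, most of it from the granin gene CHGB, the level was 12633 to 13146 CPM in control libraries against 18351 to 18762 CPM in SMN1-labelled ones, with 3 of 9 tested markers higher and 6 lower. TH, which encodes the first enzyme of catecholamine synthesis, was near 0, with 15 reads over the control libraries and 2 over the SMN1-labelled ones.

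Promoters of members were searched for the recognition sequence of MTF1, and elements outside the windows given here were not looked for. Among the members, RefSeq promoter sequences on GRCh38.p14 were at hand for MT2A, MT1X, SLC30A1 and MTF1. The 250 bases before the start are printed 5′ to 3′ on the strand of the gene, with capitals marking the core of the metal response element, searched as TGCACNC and TGCGCNC on both strands. The window of MT2A is chr16:56608334-56608583 on the plus strand and that of MT1X chr16:56682220-56682469 on the plus strand. The window of SLC30A1 is chr1:211579162-211579411 and that of MTF1 chr1:37859593-37859842, both on the minus strand. RefSeq starts differ from the GENCODE gene bounds given below. The window of MT2A lies wholly inside the GENCODE gene, and those of MT1X and MTF1 reach into theirs. The window of SLC30A1 lies before the GENCODE gene without adjoining it, and the bases between them were not searched.
MT2A: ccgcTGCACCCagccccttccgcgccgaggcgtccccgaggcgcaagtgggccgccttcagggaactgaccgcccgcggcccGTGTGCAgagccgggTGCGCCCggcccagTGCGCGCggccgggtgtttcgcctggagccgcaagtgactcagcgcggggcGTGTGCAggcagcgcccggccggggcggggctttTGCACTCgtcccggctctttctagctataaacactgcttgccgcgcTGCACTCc
MT1X: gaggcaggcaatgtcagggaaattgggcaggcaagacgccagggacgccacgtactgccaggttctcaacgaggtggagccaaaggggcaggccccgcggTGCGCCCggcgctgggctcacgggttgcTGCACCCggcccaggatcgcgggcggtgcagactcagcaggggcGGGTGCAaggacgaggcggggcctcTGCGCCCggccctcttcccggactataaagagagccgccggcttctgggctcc
SLC30A1: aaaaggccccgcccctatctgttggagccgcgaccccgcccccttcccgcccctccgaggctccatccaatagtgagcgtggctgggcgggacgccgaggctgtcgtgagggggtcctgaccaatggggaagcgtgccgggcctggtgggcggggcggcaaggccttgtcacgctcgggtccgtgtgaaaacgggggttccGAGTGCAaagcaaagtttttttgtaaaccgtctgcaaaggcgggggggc
MTF1: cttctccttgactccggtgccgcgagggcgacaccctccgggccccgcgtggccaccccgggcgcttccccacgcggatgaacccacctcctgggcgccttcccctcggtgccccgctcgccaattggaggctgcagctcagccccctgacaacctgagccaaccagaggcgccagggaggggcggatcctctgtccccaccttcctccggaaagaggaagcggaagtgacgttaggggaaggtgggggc

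MT2A held 7 cores, MT1X 4, SLC30A1 1 and MTF1 none in these windows, and no cores overlapped each other. Of 35116 promoters of the same length 24.8% held at least 1 core, 0.370% held 4 or more, and 0.0313% (11 promoters) held at least as many as MT2A. Outside the members, the metallothionein genes MT1H, MT1B and MT4 held 8, 3 and 3 cores, and none of them had a row in the count table. In MT2A 5 cores were on the strand of the gene and 2 on the other, spread from 246 to 2 bases before the start. In MT1X all 4 lay between 150 and 47 bases before the start. A match is a description of the sequence and not a measured binding site.

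**Figure D1:**
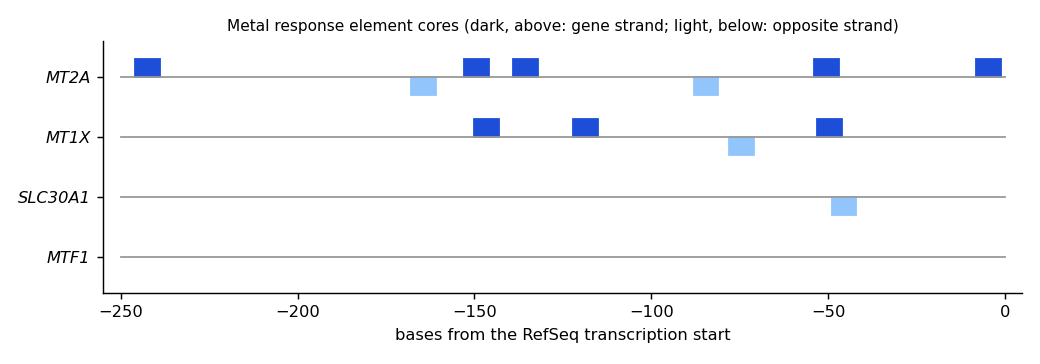
Positions of metal response element cores in the 250 bases before the RefSeq start of 4 members, drawn to scale, with the distance from the start in bases on the x axis; dark boxes above a line are matches on the strand of the gene, and light boxes below it are matches on the other strand. MT2A has 7 boxes, MT1X 4, SLC30A1 1 and MTF1 none.

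The main metallothionein of these cells was MT2A, and it was lower in the SMN1-labelled libraries. MT2A encodes the broadly expressed metallothionein-2, and lies on chromosome 16 at 56608199 to 56609497 on the plus strand (GENCODE v29, GRCh38). It had reads of 1815, 1848 and 1917 in control libraries against 1191, 1286 and 1012 in SMN1-labelled ones. Scaled to library size these were 60.4, 60.5 and 66.1 CPM against 35.6, 30.9 and 30.8 CPM. Every SMN1-labelled library lay far below every control library. The mean was 62.3 ± 3.23 CPM (SD, n = 3 libraries, as for every SD given here) in the control and 32.4 ± 2.72 CPM in the SMN1-labelled group, 1.93-fold lower (log2 difference -0.94 ± 0.05, SE, at an edgeR adjusted p = 4.41e-13). Of all 15829 genes tested, 428 (2.70%) had a log2 fold change as low or lower. In these bulk libraries fewer cells that express a gene and less RNA per cell cannot be told apart.

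MT1X also fell, from a much lower level. It encodes a metallothionein-1 isoform and lies at the far end of the metallothionein cluster from MT2A, at 56682424 to 56684196 on chromosome 16. It had reads of 73, 105 and 92 in control libraries against 53, 66 and 45 in SMN1-labelled ones, or 2.43, 3.44 and 3.17 CPM against 1.58, 1.59 and 1.37 CPM. The groups did not overlap, and the control libraries were more spread than the SMN1-labelled ones. The mean went from 3.01 ± 0.523 to 1.51 ± 0.125 CPM, 1.98-fold lower (log2 difference -0.99 ± 0.16, SE, at an edgeR adjusted p = 1.83e-05). On the deposited FPKM scale, which corrects for gene length, MT2A stood at 62.3 ± 2.47 and 34.5 ± 2.72 and MT1X at 1.59 ± 0.276 and 0.85 ± 0.0693 in the control and SMN1-labelled groups. MT2A ranked 649th to 694th by FPKM in the control libraries and 1038th to 1174th in the SMN1-labelled libraries, out of 28501 genes.

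The other metallothionein-1 genes were at the edge of detection. MT1F, an isoform gene between MT2A and MT1X in the cluster, had 13, 19 and 9 reads in control against 12, 13 and 13 in SMN1-labelled libraries, so that its groups overlapped. Its log2 fold change of -0.37 (SE 0.34, 95% interval -1.04 to 0.30, edgeR adjusted p = 0.371) did not pass, and its interval holds both no difference and the size found for MT2A and MT1X. MT1E had 5, 6 and 5 control reads against 1, 5 and 5 and was removed by the filter. Pooled, its 16 and 11 reads gave a ratio of control to SMN1-labelled, relative to depth, of 1.65 with an exact 95% interval of 0.717 to 3.92, which covers counting error only. MT1G had 2, 0 and 1 reads against 0, 1 and 0, at or under the limit that a count of 0 allows, and no fold is given. A difference in MT1E or MT1G was not detectable at this depth.

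**Figure D2:**
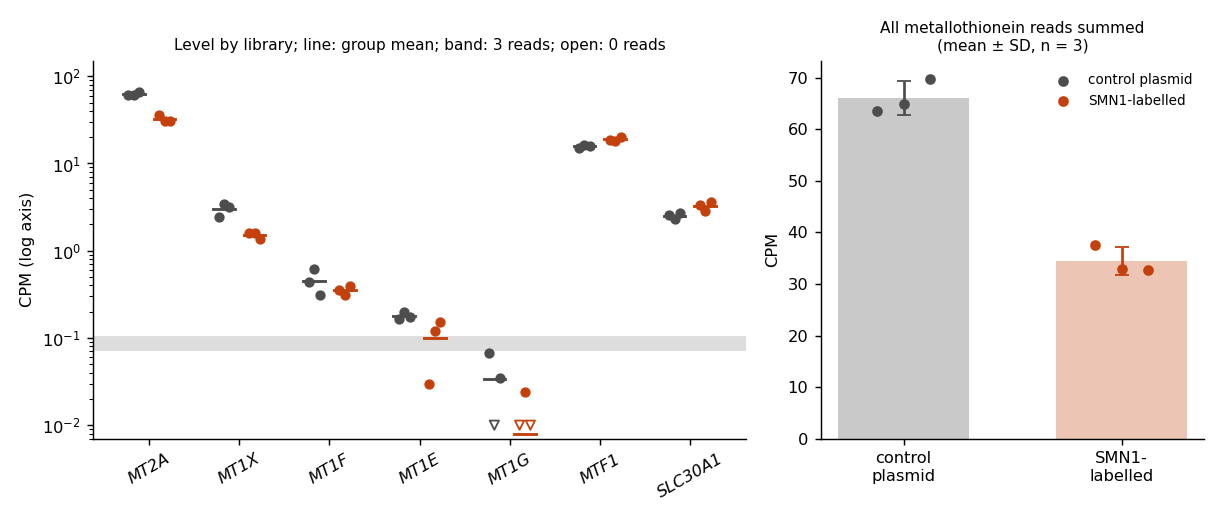
Left, the level of each member in CPM on a log axis, 1 point per library (grey, control plasmid; orange, SMN1-labelled), with group means as lines, the level of 3 reads as a grey band and open triangles for 0 reads; right, the summed metallothionein reads in CPM as mean ± SD over 3 libraries. MT2A and MT1X separate by group downwards and MTF1 and SLC30A1 upwards, and MT1E and MT1G lie around the level of 3 reads.

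Because metallothionein genes resemble one another, reads could be split between them. Stretches of 150 nt, the read length, were therefore compared by exact match. None of the 637 windows of this length in the longest coding MT2A transcript occurs in a transcript of another GENCODE v29 gene. The same holds for the windows of MT1E, MT1F and MT1G. Windows that differ by a single base count as distinct here, so whether alignment told all reads apart was not tested. In MT1X 173 of 389 windows (44.5%) also occur in AC026461.1, an overlapping non-coding transcript on the same strand, so its reads could be divided or withheld. How such reads were counted is not stated. With all 6 metallothionein rows of the table summed, the pseudogene MT1XP1 included (2 control and 3 SMN1-labelled reads), the level was 63.6, 64.8 and 69.8 CPM in control libraries against 37.6, 33.0 and 32.7 CPM in SMN1-labelled ones. The sum was 1.92-fold lower (log2 difference -0.94 ± 0.05, SE, at an edgeR adjusted p = 3.12e-13).

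No difference in the make-up of the pool passed a test. MT2A supplied 95.1%, 93.4% and 94.7% of the summed reads in control libraries against 94.7%, 93.7% and 94.1% in SMN1-labelled ones. The means were 94.4 ± 0.893% and 94.2 ± 0.479% (SD, n = 3 each), a difference of -0.237 percentage points that did not pass an exact two-sided permutation test (p = 0.7, where 3 libraries against 3 cannot go below 0.1). Without the first control library the difference was 0.106 percentage points, the other direction. MT1X supplied 4.56 ± 0.741% and 4.40 ± 0.354% (exact two-sided permutation p = 0.8).

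The genes of zinc sensing and export moved the other way. MTF1, the zinc finger activator of metallothionein transcription, lies on chromosome 1 at 37809567 to 37859620 on the minus strand. It had 457, 498 and 462 reads in control against 629, 760 and 669 in SMN1-labelled libraries, or 15.2, 16.3 and 15.9 against 18.8, 18.3 and 20.4 CPM. No library of one group reached the other. The mean rose 1.21-fold, from 15.8 ± 0.557 to 19.1 ± 1.08 CPM (log2 difference 0.27 ± 0.06, SE, at an edgeR adjusted p = 0.000621). Of all genes tested 23.1% had a log2 fold change as high or higher. The call was lost with length and GC trends removed (log2 fold change 0.14, edgeR adjusted p = 0.0518, and from 5.86e-05 to 0.0518 across the alternatives).

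SLC30A1 also rose, with a call that depended on single libraries. The gene of the plasma membrane zinc exporter lies on chromosome 1 at 211571568 to 211578742 on the minus strand and had 77, 71 and 78 reads in control against 112, 119 and 120 in SMN1-labelled libraries. These were 2.56, 2.33 and 2.69 against 3.34, 2.86 and 3.65 CPM, and the groups did not overlap, though the second SMN1-labelled library came close to the third control library. The mean rose 1.29-fold, from 2.53 ± 0.184 to 3.29 ± 0.398 CPM (log2 difference 0.37 ± 0.14, SE, at an edgeR adjusted p = 0.0269). The call did not hold without the first control library (edgeR adjusted p = 0.054), the second control library (0.0963), the first SMN1-labelled library (0.0602) or the third SMN1-labelled library (0.117). It was also lost with DESeq2 (adjusted p = 0.105), on log2(FPKM + 1) without a filter (0.0578) and with length and GC trends removed (0.422). Its adjusted p lay between 0.012 and 0.422 across the alternatives.

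Of the 7 members in the table, 5 were tested, 2 fell (MT2A and MT1X), 2 rose (MTF1 and SLC30A1) and 1 did not pass (MT1F). Across all genes tested 56.2% were called, 28.0% higher and 28.2% lower, and for 60.7% the groups did not overlap, so nothing particular to the members is read from 4 calls of 5. The median absolute log2 fold change of all genes tested was 0.26, against 0.94 for MT2A and 0.99 for MT1X, where 0.27 for MTF1 and 0.37 for SLC30A1 stand nearer to it.

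**Figure D3:**
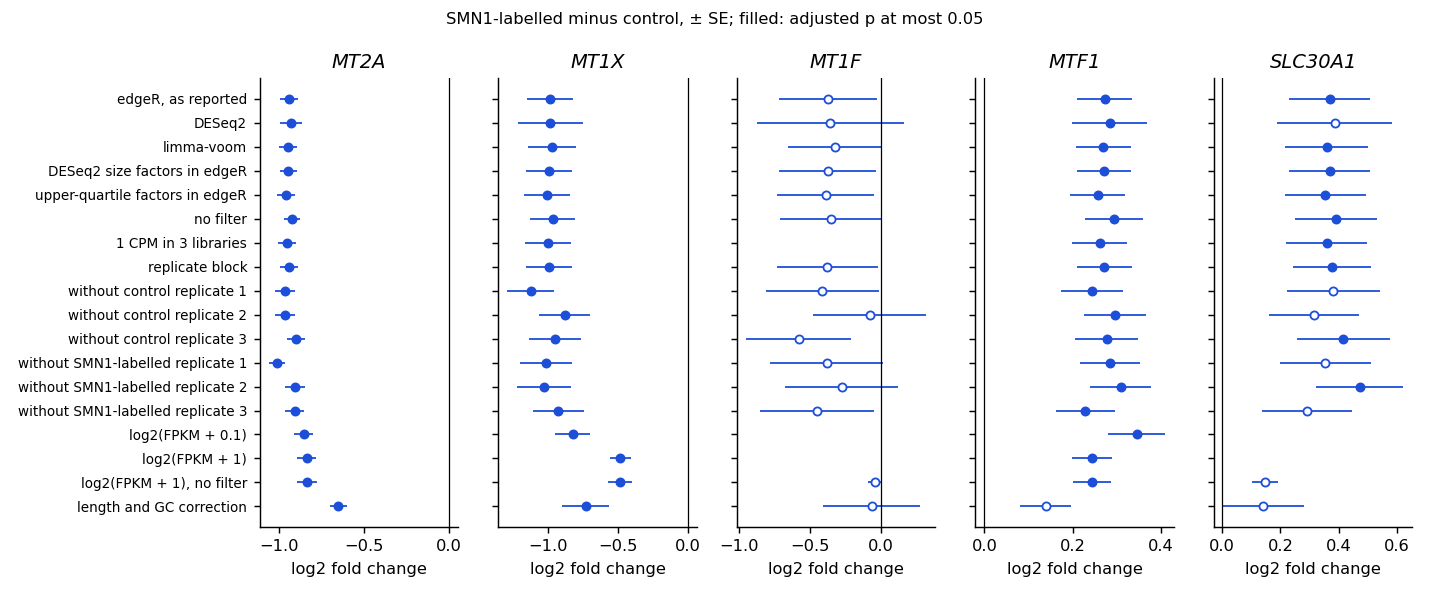
Log2 fold change (SMN1-labelled minus control, ± SE) on the x axis for each tested member under the reported fit and each alternative on the y axis; filled points have an adjusted p of at most 0.05. MT2A and MT1X are filled and below 0 in every row, MTF1 is open in 1 row, SLC30A1 is open in 7 rows, and MT1F is open in all rows where it was tested.

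The members differ in length and base composition in a way that runs with the direction of their change. MT2A and MT1X have 1299 and 1773 nt of joined exons and a GC content of 53.9% and 53.7%, and MTF1 and SLC30A1 have 8024 and 5474 nt and 46.7% and 38.0%. Over all genes tested the median log2 difference was -0.26 in the shortest decile (median 871 nt), -0.23 in the next (median 1911 nt) and 0.15 in the longest. It was 0.23 in the decile of lowest GC content and -0.25 in that of highest. In the decile nearest to MT2A and MT1X (median 53.3% GC) it was -0.09, and in that nearest to MTF1 (median 47.5%) 0.03. After removal of both trends within each library, MT2A was at -0.65 (SE 0.05, edgeR adjusted p = 3.95e-10) and MT1X at -0.73 (SE 0.17, edgeR adjusted p = 0.00086). MTF1 was at 0.14 (adjusted p = 0.0518) and SLC30A1 at 0.14 (adjusted p = 0.422). The decreases of both metallothioneins were therefore also measured after this correction, and the increases of MTF1 and SLC30A1 did not pass.

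**Figure D4:**
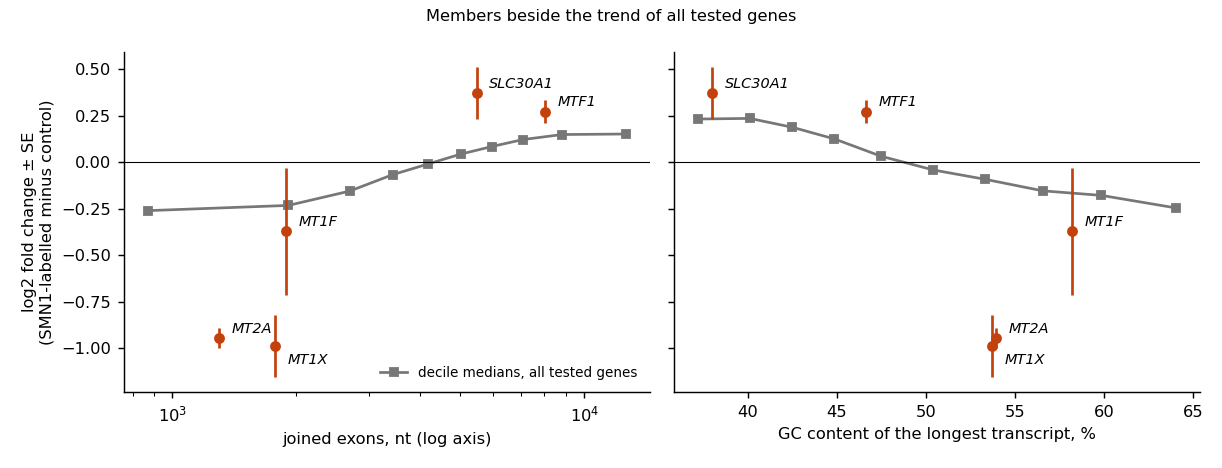
Log2 fold change (SMN1-labelled minus control, ± SE) of the 5 tested members against joined exon length in nt on a log axis (left) and GC content in percent (right), with the medians of all tested genes by decile as grey squares. MT2A and MT1X lie near -0.94 and -0.99, below all decile medians by length, of which the lowest is -0.26.

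Markers of other cell types also differed between the groups. Summed over 7 mesenchymal markers the level was 87.7 to 94.3 CPM in control libraries against 35.6 to 37.2 CPM in SMN1-labelled ones, with 2 of 4 tested markers lower and none higher, and most of the sum came from the collagen gene COL3A1 (65.9 ± 2.16 to 25.6 ± 0.119 CPM). COL1A2 had 22 and 2 reads and DCN 14 and 12. Summed over 4 epithelial markers it was 20.5 to 21.5 against 8.69 to 9.10 CPM, with 2 of 3 tested lower, and over the 5 Schwann and glial markers found 3.83 to 5.34 against 2.40 to 2.66 CPM, with 2 of 3 tested lower. Over 4 astrocyte markers it was 0.866 to 1.21 against 0.608 to 0.841 CPM with none of 2 called and AQP4 at 0 reads in the control libraries, and over the 3 immune markers found it was at most 0.133 CPM in any library. Their part in the lower metallothionein level was not tested.

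The other genes of the SLC30 family rose for the most part. Many, though not all, of their products carry zinc from the cytosol into vesicles or out of the cell. Of 10 genes listed with them, 8 were in the table and 7 tested, of which 5 rose and 1 fell; their median log2 difference was 0.43, against 0.00087 over all genes tested. SLC30A9, which encodes a mitochondrial zinc transporter and is outside that description, had the highest FPKM of the genes tested. It rose 1.35-fold from 39.6 ± 2.22 to 53.5 ± 2.99 CPM (edgeR adjusted p = 6.00e-08). SLC30A5 and SLC30A6, whose products pair to load zinc into the secretory pathway, rose 1.24-fold (11.2 ± 0.544 to 13.8 ± 0.624 CPM) and 1.37-fold (4.04 ± 0.149 to 5.54 ± 0.189 CPM). The gene that fell was SLC30A3, which fills synaptic vesicles with zinc. It had reads of 65, 58 and 61 in control against 40, 56 and 39 in SMN1-labelled libraries, 1.64-fold lower after scaling (2.06 ± 0.138 to 1.24 ± 0.0900 CPM, edgeR adjusted p = 0.00116). SLC30A4 and SLC30A7, named after their values were seen, rose 1.50-fold and 1.45-fold, the latter not without the third SMN1-labelled library (edgeR adjusted p = 0.0527, and from 0.00223 to 0.161 across the alternatives). With length and GC trends removed 1 gene was higher and 1 lower: SLC30A9 and SLC30A3 kept their calls, and SLC30A4, SLC30A5, SLC30A6 and SLC30A7 did not (edgeR adjusted p = 0.101, 0.40, 0.0628 and 0.161). TMEM163, another zinc efflux gene, had 12 and 35 reads and was removed by the filter.

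The SLC39 family, which brings zinc into the cytosol from outside or from vesicles, split in direction. Of 14 genes 13 were in the table and 11 tested, of which 6 rose and 3 fell; their median log2 difference was 0.25. SLC39A9 rose 1.44-fold (35.0 ± 1.38 to 50.5 ± 3.01 CPM, edgeR adjusted p = 2.18e-09), SLC39A14, an importer of zinc, manganese and iron, 1.43-fold (27.6 ± 1.86 to 39.4 ± 1.81 CPM), and SLC39A6 1.29-fold (83.4 ± 4.01 to 107.7 ± 2.19 CPM). SLC39A11, named after its value was seen, rose 1.19-fold. It was not called without the second control library (edgeR adjusted p = 0.0603) or the second SMN1-labelled library (0.0527). Its adjusted p lay between 0.000855 and 0.0603 across the alternatives. SLC39A4, the importer whose loss causes the zinc deficiency acrodermatitis enteropathica, fell 1.89-fold, from 8.78 ± 0.195 to 4.64 ± 0.463 CPM (edgeR adjusted p = 1.44e-08). The other genes that fell, named after their values were seen, were SLC39A3 (1.30-fold) and SLC39A1 (1.12-fold). SLC39A1 did not pass on FPKM values and turned to 0.051 with length and GC trends removed (edgeR adjusted p = 0.31, the highest across its alternatives, from 0.000578). Nor did SLC39A3 pass on unfiltered log2(FPKM + 1) values (limma adjusted p = 0.0647, the highest across its alternatives, from 2.70e-06). SLC39A7, which releases zinc from the endoplasmic reticulum and was the family's most abundant member by FPKM, stood at 211 ± 9.35 and 216 ± 3.58 CPM and did not pass in the reported fit (edgeR adjusted p = 0.453), but was called higher with length and GC trends removed (edgeR adjusted p = 2.63e-06, and from 2.63e-06 to 0.985 across the alternatives). With length and GC trends removed 7 of the 11 were higher and 2 lower.

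**Figure D5:**
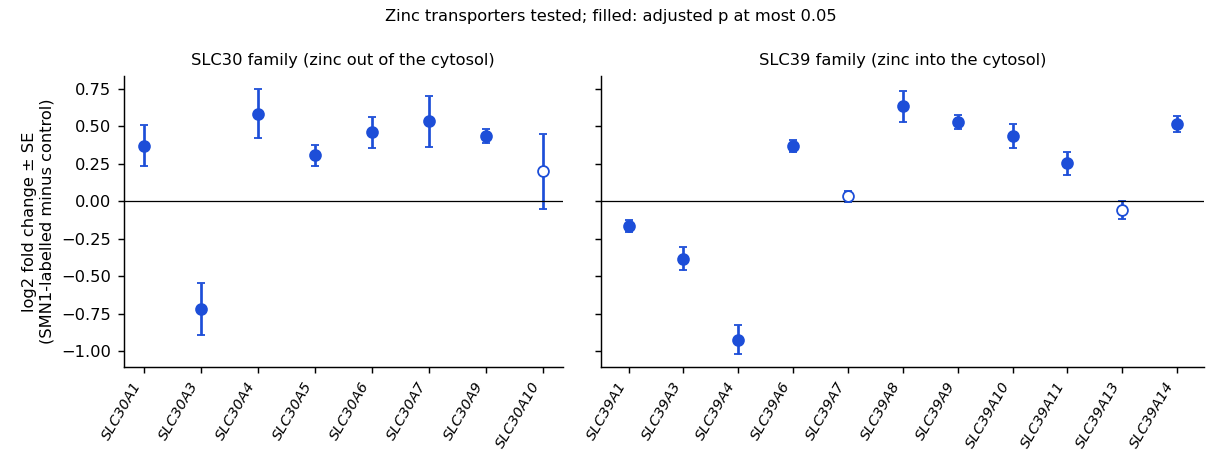
Log2 fold change (SMN1-labelled minus control, ± SE) of each tested zinc transporter, with genes on the x axis; filled points have an adjusted p of at most 0.05. SLC30A3 is the only SLC30 gene below 0, and SLC39A4 has the lowest value of both families.

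Genes that respond to metals and oxidants beside the metallothioneins moved both ways. Of 13 listed, 12 were tested, 6 rose and 3 fell (median log2 difference 0.16), against 6 higher and 2 lower with length and GC trends removed. NQO1, a quinone reductase gene induced by oxidants, fell 2.26-fold from 14.3 ± 0.524 to 6.34 ± 0.452 CPM (edgeR adjusted p = 1.28e-11), and the selenoprotein gene SELENOH fell 1.50-fold from 113 ± 4.15 to 75.7 ± 3.97 CPM. HMOX1, the heme oxygenase gene that cadmium induces, also fell and was named after its value was seen (1.01 ± 0.261 to 0.610 ± 0.0278 CPM, edgeR adjusted p = 0.0215). Its call did not hold without the first or the third control library (0.132 and 0.065) or the second or the third SMN1-labelled library (0.0545 and 0.0564), and its adjusted p lay between 0.0074 and 0.168 across the alternatives. The heat shock genes HSPA1B and DNAJB1, which heavy metals also induce, rose 1.41-fold (99.1 ± 3.72 to 139.7 ± 14.2 CPM) and 1.26-fold (113 ± 3.79 to 143 ± 5.65 CPM). HSPA1B is nearly identical to HSPA1A, and how their reads were divided is uncertain. TXNRD1, GCLC and GCLM of this list, named after their values were seen, rose 1.19-fold, 1.33-fold and 1.46-fold (edgeR adjusted p = 8.26e-07, 6.07e-06 and 0.00514). GCLM was not called without the second control library (edgeR adjusted p = 0.0508) or with length and GC trends removed (0.0977). Its adjusted p lay between 0.000688 and 0.0977 across the alternatives.

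Glucocorticoids also induce MT2A, and the genes listed for that response split. The list holds the gene of the receptor and that of a cortisol-inactivating enzyme beside induced genes. Of 8 tested, 2 rose and 3 fell (median log2 difference -0.03). With length and GC trends removed 3 were higher and 3 lower: FKBP5, a glucocorticoid-induced cochaperone gene, was then at -0.30 (edgeR adjusted p = 2.36e-06, against 0.25 in the reported fit) and TSC22D3, another induced gene, at 0.16 (0.00803, against 0.135), both named after their values were seen. SGK1, a kinase gene induced by glucocorticoids, fell 3.40-fold from 3.14 ± 0.0950 to 0.933 ± 0.187 CPM (edgeR adjusted p = 9.71e-09), and DUSP1, a phosphatase gene that glucocorticoids and growth factors induce, 1.48-fold. KLF9, another target, rose 1.67-fold (2.53 ± 0.264 to 4.23 ± 0.270 CPM), and NR3C1, which encodes the glucocorticoid receptor, 1.78-fold (1.56 ± 0.0779 to 2.74 ± 0.678 CPM). HSD11B2, which inactivates cortisol, also fell and was named after its value was seen. It was no longer called without the first control library (edgeR adjusted p = 0.0519) or the first or second SMN1-labelled library (0.0536 and 0.0674), and its adjusted p lay between 0.00162 and 0.133 across the alternatives.

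Copper shares the metallothioneins with zinc, and its genes split as well: of 13 tested, 5 rose and 4 fell (median log2 difference 0.08), against 4 higher and 4 lower with length and GC trends removed. SOD1, the copper and zinc superoxide dismutase gene, fell 1.31-fold from 591 ± 15.7 to 450 ± 5.72 CPM (edgeR adjusted p = 5.57e-10), COMMD1, whose product takes part in copper export, 1.44-fold, and ATOX1, the copper chaperone of the export pumps, 1.31-fold. COX17, which hands copper to cytochrome oxidase, fell 1.13-fold, a call lost without the third control library (edgeR adjusted p = 0.127, and from 0.00311 to 0.452 across the alternatives). COX11 rose 1.20-fold (edgeR adjusted p = 0.000339). MEMO1, SCO1, ATP7B and SLC31A2 also rose and, like COX17, were named after their values were seen. MEMO1 was not called without the second control library (edgeR adjusted p = 0.0587), SCO1 without the third control or the third SMN1-labelled library (0.108 and 0.0885), ATP7B without the third SMN1-labelled library (0.0577) and SLC31A2 without the first or the third control or the third SMN1-labelled library (0.127, 0.0934 and 0.134). With length and GC trends removed SCO1 turned to -0.036. Across the alternatives the adjusted p of these 4 genes ran from 0.000138 to 0.517, 0.000345 to 0.523, 0.0108 to 0.0762 and 0.0201 to 0.14.

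Among partners of MTF1 and zinc-dependent enzymes, 3 of 5 tested genes rose and none fell in the reported fit (median log2 difference 0.11). With length and GC trends removed 3 were higher and 1 lower: HDAC2, a histone deacetylase gene, was then at -0.31 (edgeR adjusted p = 7.17e-08, against 0.146 in the reported fit) and CREBBP, a coactivator gene related to EP300, at 0.09 (0.024, against 0.526), both named after their values were seen. SP1, a zinc finger activator that works with MTF1 at metallothionein promoters, rose 1.41-fold from 32.5 ± 1.81 to 45.9 ± 1.58 CPM (edgeR adjusted p = 4.39e-09), and EP300, the gene of an acetyltransferase coactivator, 1.12-fold. METAP1, a metal-dependent aminopeptidase gene, rose 1.08-fold (edgeR adjusted p = 0.0266). That call was lost without any 1 of the control libraries (0.0542, 0.0636 and 0.0651) or the second or the third SMN1-labelled library (0.123 and 0.0725), and its log2 fold change turned to -0.011 with length and GC trends removed, its adjusted p lying between 0.00324 and 0.842 across the alternatives.

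Metallothionein genes and their pseudogenes form a cluster of 16 annotated genes over 119.1 kb, at 56565049 to 56684196 on chromosome 16, of which 5 had a row in the count table. Of 10 flanking genes 8 were tested, 3 rose and 2 fell (median log2 difference 0.10), against 1 higher and 2 lower with length and GC trends removed. NUDT21, an mRNA 3′ end processing gene named after its value was seen, was then among the lower (-0.14, edgeR adjusted p = 0.0165). In the reported fit NUDT21 was at 0.10, the other direction, and was not called (edgeR adjusted p = 0.0655). It was called higher without the first control library (0.14, edgeR adjusted p = 0.0364) and on FPKM values. NUP93, a nuclear pore gene, fell 1.28-fold (49.4 ± 2.45 to 38.6 ± 0.754 CPM, edgeR adjusted p = 3.03e-07), and NLRC5, named after its value was seen, was lower on 72 and 47 reads with overlapping groups. The call of NLRC5 was lost without the first or second control library (edgeR adjusted p = 0.193 and 0.203) or the first or the third SMN1-labelled library (0.0777 and 0.102), and its adjusted p lay between 0.00124 and 0.389 across the alternatives. HERPUD1, an endoplasmic reticulum stress gene, rose 1.39-fold from 28.6 ± 0.631 to 39.9 ± 0.0855 CPM. OGFOD1 and BBS2, which lie next to the cluster, rose 1.15-fold and 1.32-fold. Both lost their calls with length and GC trends removed, which took OGFOD1 to -0.0053 (edgeR adjusted p = 0.919, and from 5.25e-06 to 0.919 across the alternatives) and left BBS2 at an adjusted p of 0.207 (from 0.000215).

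Over the 8 lists 46 of 64 tested genes were called, 30 higher and 16 lower, which is 71.9% against 56.2% of all genes tested. Among the genes whose log2 CPM over the 6 libraries followed that of MT2A most closely, out of 9754 at 5 CPM or more in both groups, were XAB2, JPT1, CAD and TPM1, each with a Pearson's r of 0.999. These 4 were lower in the SMN1-labelled libraries, and with 6 points in 2 groups 1614 genes reached an r of 0.95. For SLC30A1 they were ATP2B2, FAM163B, OSBPL6, TRMT13 and TRPM7, with r from 0.991 to 0.981, and 44 genes reached 0.95. These correlations describe 6 shared libraries, in which the group difference and the depth are common to all genes.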

How the data were processed

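SH-SY5Y RNA went through a stranded mRNA kit and was read as 150 nt pairs, per the labels' protocols. GRCh38, HISAT2 and DESeq2 are named, without versions, per the submitters' processing notes. The counting tool, annotation release, strand setting and treatment of multiply mapped reads could not be read from the labels or headers. The authors' deposited read counts are raw whole numbers per gene, and their deposited FPKM values are scaled by gene length and depth and rounded to 2 decimals.

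Samples were grouped by title and matched to columns by name. Within a group, pairs of libraries had a chi-square of 2.41 to 4.12 per degree of freedom, against 54.3 to 61.8 between groups, so none was counted as a repeat of another. Counts were tested in R 4.3.3 with edgeR 4.0.16 (filterByExpr, TMM factors, quasi-likelihood fit with group as the only term, two-sided, Benjamini-Hochberg over all genes tested, threshold 0.05). The SE was taken as the log2 fold change divided by the root of its F value, and intervals around it are normal approximations. Metallothionein rows were also tested as 1 sum. The steps were tested on simulated counts.

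Alternatives were DESeq2 1.42.0, limma-voom (limma 3.58.1), other size factors, no or a stricter filter (1 CPM in 3 libraries), a replicate block, each library left out in turn, limma run on log2(FPKM + 0.1) and log2(FPKM + 1) with a 0.5 FPKM filter, the latter also unfiltered, and spline removal of length and GC trends per library, with values for 15663 of the 15829 tested genes. Fold changes on the log2(FPKM + pseudocount) scale understate those of low genes. The members, lists and tests were chosen with earlier results of these data known. Named genes are all members and, from each list, up to 4 called genes in order of p; others are marked in the text. The lists covered other metallothioneins (1 of 14 in the table), SLC30 and SLC39 zinc transporters, copper handling, metal and oxidant response, glucocorticoid response, MTF1 partners, neighbours on 16q13 and cell type markers. Gene coordinates, lengths and transcripts come from GENCODE v29 on GRCh38. Among the genes most like MT2A in pattern, 1 is not reported here.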

Additional observations from a re-analysis of the deposited data

How the results depend on the processing

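The replicate numbers of the titles did not pair the libraries: deviations from the group means correlated at 0.0053, 0.0133 and 0.0030 for same-numbered libraries, and the third SMN1-labelled library correlated more with the first control library (0.0076). With the replicate number as a block 8708 genes were called in place of 8892, the members' count stayed at 4, and the summed metallothionein log2 fold change was -0.94. Over the alternatives that left out 1 library, the summed metallothionein log2 fold change ran from -1.01 to -0.90, the difference in the MT2A share from -0.742 to 0.106 percentage points, the members called from 3 to 4, the pathway list genes called from 40 to 45 and all genes called from 8021 to 8681. The length and GC correction left 2 members called, MT2A and MT1X, and turned METAP1 (-0.011) and OGFOD1 (-0.0053) to the other direction. Over the other alternatives 3 or 4 members were called. The length and GC correction also took the SLC30 calls from 6 to 2 and those among the 16q13 neighbours from 5 to 3. On log2(FPKM + 0.1) and log2(FPKM + 1) with the 0.5 FPKM filter, which tested fewer of these genes, 3 of 3 SLC30 genes and 3 of 5 glucocorticoid response genes were called. On log2(FPKM + 1) 62.6% of all calls were higher, against 49.8% on counts. MT2A and MT1X kept their direction and their call under all 17 alternatives. MT1F was not called in any of the 14 that tested it. Of 32 genes followed, 25 kept both direction and side of the threshold throughout. These were the tested members and, from each list, up to 4 called genes in order of p. That choice by p favours genes that keep their call, so the count does not describe the lists as a whole. Depth limits MT1F, MT1E and MT1G, with 79, 27 and 4 reads in all 6 libraries.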
